A study of Mus musculus with 12 samples.

Results

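Bipolar cells are the interneurons that carry the signal of rods and cones across the inner retina to amacrine and ganglion cells, and 9 genes known as their markers (Vsx1, Trpm1, Prkca, Cabp5, Pcp2, Isl2, Otx2, Nyx and Gpr179) were taken by symbol from the 25655 genes of the deposited count tables. All 9 were found and all 9 passed the minimum count in each comparison. Total RNA was sequenced from the whole retina of C57BL/6J mice of 8 to 10 weeks, whose left optic nerve had been crushed (optic nerve crush, ONC) 2 days earlier. Every group carried the injury, and no uninjured retina was analysed here. After ONC the eye received an intravitreal injection of PBS as the control, of fluvastatin, an inhibitor of the sterol enzyme HMG-CoA reductase, or of matrix-bound nanovesicles (MBV), vesicles isolated from the extracellular matrix of pig urinary bladder, with 3 samples in each group. A group given MBV together with fluvastatin was not analysed here. The study calls the samples of a group biological replicates, and the labels do not say whether a sample is 1 animal or a pool. Libraries of the PBS group held 26325065 to 30992040 counts, those of the fluvastatin group 23634662 to 27098889 and those of the MBV group 21349516 to 26738043.

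In the ON pathway, glutamate released by photoreceptors in the dark binds the receptor mGluR6 (Grm6) on the bipolar dendrite and, through the G protein Go, keeps the cation channel TRPM1 closed. Light lowers glutamate, the regulators of G protein signalling that GPR179 anchors switch Go off, and TRPM1 opens. Nyctalopin (Nyx) holds the channel in place at the dendritic tip, and loss of Grm6, Trpm1, Gpr179 or Nyx abolishes the ON response and causes stationary night blindness. Rod bipolar cells carry protein kinase C alpha (Prkca) and PCP2, the calcium-binding protein CABP5 is found in rod bipolar and some cone bipolar types, and the homeobox factors OTX2 and VSX1 act in the making of bipolar cells and of certain cone bipolar types. In bulk retina, fewer bipolar cells and less RNA per cell cannot be told apart.

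The library names fall into 2 sets, one that holds PBS and the combined treatment and one that holds fluvastatin and MBV. Each single treatment was therefore compared with PBS across sets, where a difference of set and a difference of treatment cannot be told apart, while MBV and fluvastatin lie within 1 set. The treatments also share their PBS libraries, so that their comparisons with PBS are not independent of each other. A gene was called changed at an FDR under 0.05 in edgeR's quasi-likelihood test, with the FDR taken over all genes tested.

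The promoters of 4 members are shown because OTX2 and its relative CRX bind the letters TAATCC. Vsx1 and Gpr179 were the members called in these data, and Trpm1 and Cabp5 are uncalled members that hold the letters. The sequences are the 250 bases before the start of transcription, 5′ to 3′, from RefSeq on build GRCm38.p6. Capitals mark TAATCC on either strand (GGATTA where it lies on the other strand).
Cabp5, chr7:13397905-13398154, plus strand: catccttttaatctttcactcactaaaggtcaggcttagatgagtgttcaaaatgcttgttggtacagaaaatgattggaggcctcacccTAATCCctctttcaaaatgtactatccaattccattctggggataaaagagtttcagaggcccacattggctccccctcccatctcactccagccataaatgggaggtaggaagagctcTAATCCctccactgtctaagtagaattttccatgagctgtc
Trpm1, upstream start, chr7:64153585-64153834, plus strand: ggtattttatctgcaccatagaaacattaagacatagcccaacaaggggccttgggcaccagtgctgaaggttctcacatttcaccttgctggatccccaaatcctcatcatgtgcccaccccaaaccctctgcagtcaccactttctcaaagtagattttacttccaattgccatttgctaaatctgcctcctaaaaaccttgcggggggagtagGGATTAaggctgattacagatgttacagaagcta
Vsx1, chr2:150689138-150689387, minus strand: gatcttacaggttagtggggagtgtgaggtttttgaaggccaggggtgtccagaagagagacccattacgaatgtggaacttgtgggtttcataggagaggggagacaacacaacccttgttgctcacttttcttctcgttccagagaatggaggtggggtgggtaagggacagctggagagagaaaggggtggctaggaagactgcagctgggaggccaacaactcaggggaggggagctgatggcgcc
Gpr179, chr11:97352357-97352606, minus strand: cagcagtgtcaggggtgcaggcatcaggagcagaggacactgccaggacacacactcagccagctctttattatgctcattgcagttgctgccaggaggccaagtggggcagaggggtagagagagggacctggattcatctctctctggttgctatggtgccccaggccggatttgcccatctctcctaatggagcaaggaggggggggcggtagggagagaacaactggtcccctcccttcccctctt
In Cabp5 the letters began at positions -160 and -41, counted from the start of transcription, and in Trpm1 at position -34. Neither Vsx1 nor Gpr179 had them in this window. The other start of Trpm1 lacked them too, as did Prkca, Nyx, Isl2 and Pcp2, which were not called. The uncalled promoters shown are ones that hold the letters, so the contrast within the 4 comes from the choice. A link of the letters to the calls was not tested. All 9 members matched the RefSeq table, with 16 start sites, and 3 of the 16 windows held TAATCC (in Cabp5, Trpm1 and Otx2), against 6.25% of all 32851 windows of this length. The letters TAATTA, the core read by many homeobox proteins, share TAAT with that motif and stood in 3 of the 16 windows, from Otx2 and Pcp2, against 4.84% of all windows. A match describes the letters and is not a bound site.

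Trpm1 (chromosome 7, 63803583 to 63919523, plus strand; this and the following gene positions are on GRCm39) and Prkca (chromosome 11, 107824213 to 108234754, minus strand) were the members with the highest counts. Trpm1 reached 549 ± 33.3 CPM (counts relative to the library total after TMM scaling; SD, n = 3) with PBS and Prkca 543 ± 55.8 CPM. Only 0.983% of the genes with a count in a PBS library had a higher level than Trpm1. Gpr179 (chromosome 11, 97222935 to 97242903, minus strand) followed at 256 ± 23.6 CPM and Otx2 (chromosome 14, 48895134 to 48911276, minus strand) at 179 ± 10.7 CPM. Cabp5 (chromosome 7, 13132057 to 13142812, plus strand) stood at 75.3 ± 8.68 CPM and Pcp2 (chromosome 8, 3673371 to 3675545, minus strand) at 59.7 ± 10.1 CPM. Vsx1 (chromosome 2, 150522622 to 150531280, minus strand) had 32.9 ± 3.33 CPM and Nyx (chromosome X, 13332349 to 13355552, plus strand) 30.3 ± 1.12 CPM. Isl2 (chromosome 9, 55445956 to 55453464, plus strand), a LIM homeobox factor better known from a subset of retinal ganglion cells, stood apart at 1.85 ± 0.371 CPM, and 71.5% of the genes with a PBS count had a higher level. Its relative Isl1, the LIM homeobox factor of ON bipolar cells, was at 61.5 ± 4.34 CPM in the same libraries. Across all 9 libraries Isl2 had only 32 to 61 counts, whereas each of the other members had at least 460.

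Divided by the length of the canonical transcript, the PBS level per kilobase was highest for Pcp2 at 125 ± 21.1 CPM per kilobase (SD, n = 3), which has the shortest transcript of the 9. Trpm1 at 69.0, Prkca at 62.2 and Otx2 at 54.6 CPM per kilobase came next, and the ranges of Trpm1 and Prkca overlapped, as did those of Prkca and Otx2. Cabp5 at 42.4, Gpr179 at 27.8, Vsx1 at 8.69, Nyx at 3.49 and Isl2 at 0.999 CPM per kilobase followed with no overlap between neighbours. When the length of all exons together was used, Prkca led at 51.8 CPM per kilobase and Pcp2 was the third at 32.6, so the order of the first 4 depends on the transcript taken, and the last 5 kept their order.

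**Figure D1:**
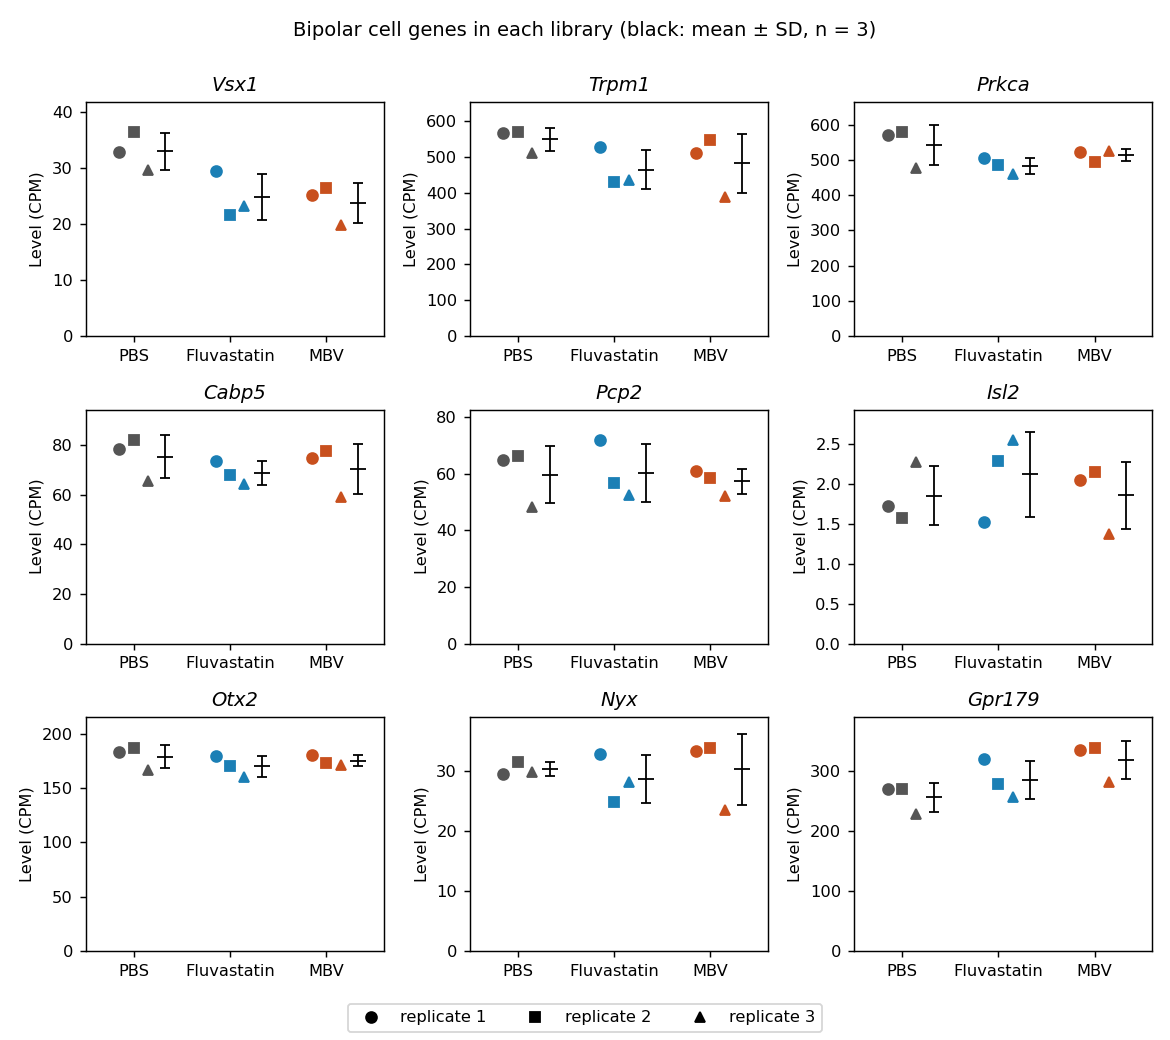
Level of the 9 bipolar cell genes in each of the 9 libraries, in CPM on an axis that starts at 0, by treatment group. Coloured symbols are libraries, with the symbol giving the replicate number, and black marks are the mean ± SD (n = 3). The MBV and fluvastatin symbols lie below all PBS symbols for Vsx1, the MBV symbols lie above all PBS symbols for Gpr179, and the groups overlap in the other 7 genes.

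Among the members, Vsx1 was lower with either treatment and Gpr179 was higher with MBV. With fluvastatin, 1 of the 9 members was called, Vsx1, against 25.0% of the 15129 genes tested (12.7% called lower and 12.3% called higher). With MBV, 2 of the 9 were called, against 33.7% of 15193 genes (17.5% lower and 16.1% higher). Among genes with a mean of at least 10 CPM, as 8 of the members had, 31.5% and 40.9% were called. The share of members called was thus no larger than the background in either comparison. At an unadjusted p under 0.05 the members numbered 2 with fluvastatin and 2 with MBV, where 39.1% and 45.5% of all genes passed. Groups that did not overlap with PBS were found in 1 of 9 members with fluvastatin and 2 of 9 with MBV, against 43.3% and 49.0% of genes. The median log2 fold change over the 9 members was -0.084 with fluvastatin and -0.069 with MBV, beside -0.001 and 0.005 over all genes tested. No member changed by a factor of 2, which 1.28% of genes did with fluvastatin at the same FDR and 2.22% with MBV.

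Vsx1, the homeobox factor that completes the fate of several cone bipolar types, had 32.8, 36.4 and 29.7 CPM in PBS replicates 1 to 3. It had 29.4, 21.7 and 23.1 CPM in the fluvastatin replicates and 25.2, 26.3 and 19.7 CPM in the MBV replicates. All 6 treated libraries lay below the lowest PBS library, although fluvastatin replicate 1 did so by a narrow margin. Vsx1 was 1.33-fold lower with fluvastatin (log2 fold change -0.42, SE 0.118, 95% interval -0.687 to -0.147, edgeR FDR = 0.0337). With MBV it was 1.40-fold lower (log2 fold change -0.48, SE 0.118, 95% interval -0.753 to -0.207, edgeR FDR = 0.0177). Of all genes, 22.2% had every fluvastatin library below every PBS library, and 24.6% every MBV library. The call with fluvastatin was lost without PBS replicate 1 or 2 or fluvastatin replicate 2 or 3 (log2 fold change -0.42, -0.34, -0.33 and -0.37, edgeR FDR 0.093, 0.105, 0.114 and 0.105). The call with MBV was lost without PBS replicate 1 or 2 (edgeR FDR 0.0584 and 0.0598), and the other 4 fits without 1 library kept it.

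Gpr179, the orphan receptor that anchors the regulators of Go at the dendritic tip, had 270.4, 269.7 and 229 CPM with PBS. The fluvastatin replicates had 320.0, 279 and 258 CPM and the MBV replicates 335, 339 and 283 CPM. Every MBV library was above every PBS library, as in 24.4% of all genes, while fluvastatin replicate 3 lay between the PBS values. With MBV, Gpr179 was 1.24-fold higher (log2 fold change 0.31, SE 0.0894, 95% interval 0.101 to 0.514, edgeR FDR = 0.0323). With fluvastatin the log2 fold change was 0.15 (SE 0.0893, edgeR FDR = 0.239) and the test was not passed. The call with MBV was lost in 5 of the 6 fits that left out 1 library, in which only leaving out MBV replicate 3 kept it. Without PBS replicates 1, 2 and 3 in turn the edgeR FDR was 0.0659, 0.0527 and 0.0785, and without MBV replicates 1 and 2 it was 0.105 and 0.0906. Over all 6 fits the log2 fold change ran from 0.23 to 0.39. In the annotation, Gpr179 overlaps Mrpl45 on the other strand, and whether the authors' counting used the strand is not stated in the sources used here.

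Trpm1, the channel at the end of the cascade, had 567, 568 and 510.1 CPM with PBS, 528, 429 and 437 CPM with fluvastatin and 510.5, 547 and 389 CPM with MBV. The groups overlapped in both comparisons, since fluvastatin replicate 1 and MBV replicates 1 and 2 lay within the PBS values. The log2 fold change was -0.24 with fluvastatin (SE 0.0829, edgeR FDR = 0.0635) and -0.20 with MBV (SE 0.118, edgeR FDR = 0.232), so neither was called. The settings under which Trpm1 passed the test with fluvastatin included DESeq2 (adjusted p = 0.0143) and the fits without PBS replicate 3 or fluvastatin replicate 1 (edgeR FDR 0.0470 and 0.00283). Pigment cells express Trpm1 and Otx2 too. Of 10 pigment cell genes, 5 fell and 1 (Rgr) rose with fluvastatin and 5 fell with MBV, among them Dct (log2 fold change -1.67 and -1.72). Of all genes, 12.7% were called lower with fluvastatin and 17.5% with MBV. The summed level of the 10 was 129 to 165 CPM with PBS, 75.4 to 92.7 CPM with fluvastatin and 52.0 to 110.5 CPM with MBV. None of the 10 was at 0 in a group, and their part in the level of Trpm1 was not tested.

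None of the other 6 markers was called in the 3 comparisons of 2 groups. Prkca, the kinase used to stain rod bipolar cells, had 571, 578 and 478 CPM with PBS, 504, 486 and 459 CPM with fluvastatin and 522, 494 and 525 CPM with MBV. Its lowest PBS library lay within the range of the fluvastatin libraries and below all MBV libraries, and the log2 fold changes were -0.17 (SE 0.0754, edgeR FDR = 0.131) and -0.09 (SE 0.0757, edgeR FDR = 0.400). Pcp2, a modulator of Go in rod bipolar cells, ranged from 48.1 to 66.2 CPM with PBS, 52.3 to 71.9 CPM with fluvastatin and 52.3 to 60.9 CPM with MBV. Cabp5 ranged from 65.5 to 81.9, 64.3 to 73.7 and 58.8 to 77.5 CPM in the same order of groups. Otx2, which is required for the fate of photoreceptors and the upkeep of bipolar cells, ranged from 167 to 187 CPM with PBS, 160.3 to 179 CPM with fluvastatin and 171 to 181 CPM with MBV. Nyx, the leucine-rich repeat protein that holds TRPM1, ranged from 29.5 to 31.6, 24.9 to 32.9 and 23.5 to 33.9 CPM. Isl2 ranged from 1.57 to 2.27, 1.53 to 2.55 and 1.37 to 2.15 CPM. For these 6 genes the groups overlapped, and the log2 fold changes ran from -0.17 for Prkca to 0.20 for Isl2 with fluvastatin. With MBV they ran from -0.11 for Cabp5 to 0.00 for Isl2. The 95% interval was widest for Isl2, from -0.357 to 0.751 with fluvastatin, and narrowest for Otx2, from -0.21 to 0.057, so only large changes of Isl2 could be seen at its counts. Otx2 overlaps Otx2os1 and Prkca overlaps Apoh (mean of 4.3 counts) on the other strand. Pcp2 overlaps Pet100 on the other strand (mean of 329.1 counts), and reads of both cannot be told apart if the counting did not use the strand.

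**Figure D2:**
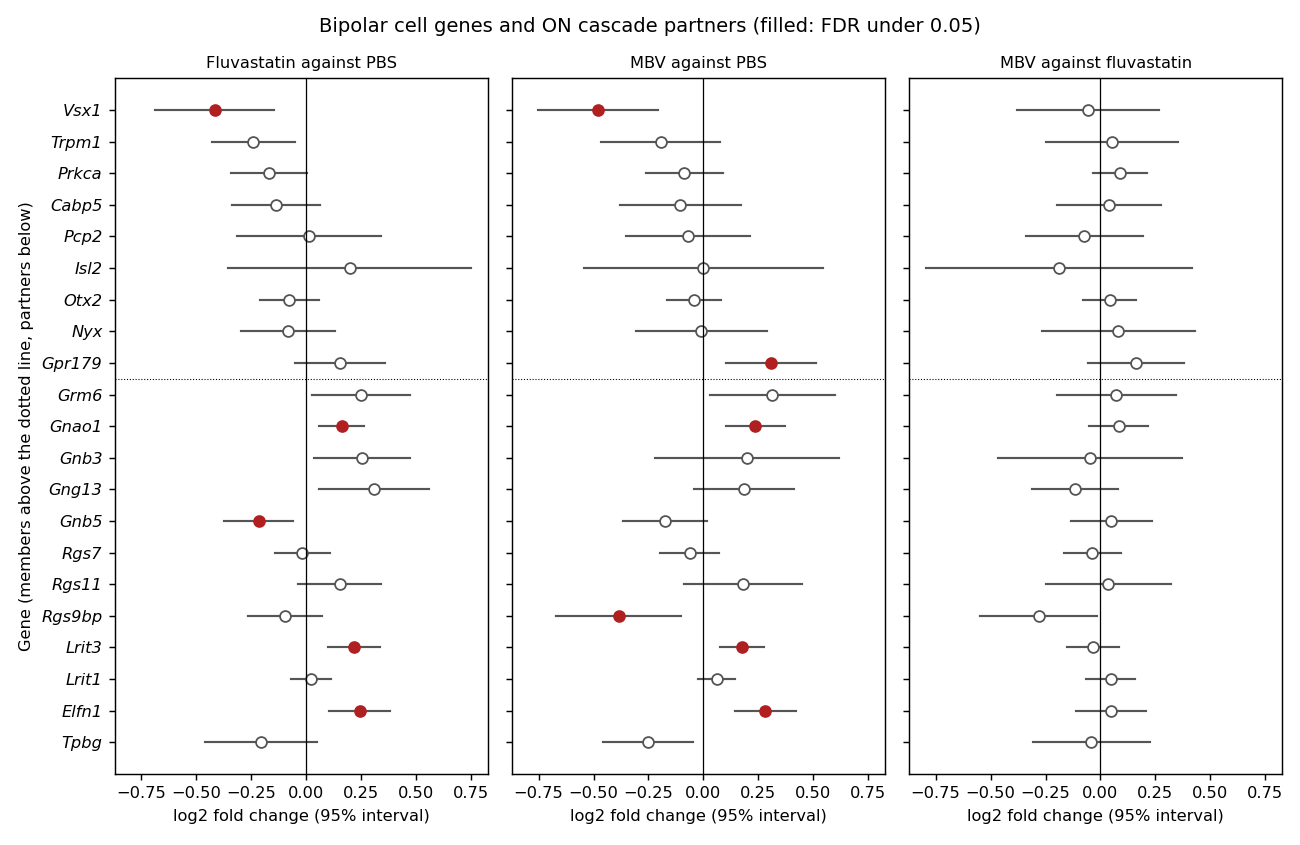
Log2 fold change of the 9 bipolar cell genes and of 12 partner genes of the ON cascade in the 3 comparisons, with 95% intervals. Filled points have an edgeR FDR under 0.05, and the vertical line marks no change. Vsx1 is left of the line against PBS with both treatments (-0.42 and -0.48) and Gpr179 right of it with MBV (0.31), whereas no point is filled between MBV and fluvastatin.

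Between MBV and fluvastatin, which lie within 1 set of libraries, no difference was called in the members (0 of 9 in edgeR, 0 of 9 at an unadjusted p under 0.05 and 0 of 9 in DESeq2), against 0.0332% of 15045 genes called, 5 genes in all, and 12.5% at an unadjusted p under 0.05. No member had groups that did not overlap, against 18.6% of genes. The log2 fold changes of MBV against fluvastatin ran from -0.19 for Isl2 to 0.16 for Gpr179, with edgeR FDRs from 0.514 to 0.908. For Vsx1 the difference was -0.06 with a 95% interval of -0.38 to 0.266, and for Gpr179 it was 0.16 with an interval of -0.057 to 0.381. The interval for Gpr179 thus holds both no difference and a difference as large as that between MBV and PBS. The widest intervals reached from -0.793 for Isl2 to 0.429 for Nyx.

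The members tended to be low in the same libraries. PBS replicate 3 had the lowest level of its group in 7 of the 9 members and MBV replicate 3 in 8 of 9, where Prkca was the exception. Fluvastatin replicate 3 was lowest in 5. How often each library was the lowest over all genes was not counted. In mean log2 level, PBS and MBV replicate 3 were also lowest in the ON cascade, transcription factor, rod and cone bipolar lists below. In the ganglion cell list both were the highest of their groups. A trait particular to the members is thus not shown. The mean of the members' log2 levels, centred on all libraries, was -0.211 in MBV replicate 3 against 0.074 and 0.086 in MBV replicates 1 and 2. It was -0.051 in PBS replicate 3 against 0.089 and 0.121 in the other PBS replicates. MBV replicate 3 also stood apart in 6 immune genes (Ptprc, Cd74, Lyz2, Ccr2, Itgam and Cx3cr1). Their summed level was 129 CPM there against 23.6 and 34.7 CPM in the other MBV libraries. Over 9 photoreceptor genes MBV replicate 3 had 18898 CPM, within the PBS range of 17485 to 19100 CPM. MBV replicates 1 and 2, at 15336 and 13552 CPM, were below every PBS and fluvastatin library in these photoreceptor genes. The part of immune and photoreceptor RNA in the members' levels was not tested. Without MBV replicate 3 the same 2 members, Vsx1 and Gpr179, were called with MBV, and without both PBS replicate 3 and MBV replicate 3 Prkca was called as well. Without PBS replicate 3 alone, 4 members were called lower with fluvastatin (Vsx1, Trpm1, Prkca and Cabp5), and Vsx1 and Prkca with MBV. The share of all genes called in these fits is not given here, so these counts show no gain or loss particular to the members.

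Gpr179 and Trpm1 belong to the same cascade, and their log2 fold changes against PBS had opposite signs, though only Gpr179 with MBV was called. Their counts were therefore set against each other within each library, a ratio that no scaling of libraries changes. The 3 ratios were chosen after the values were seen, and how often ratios of other gene pairs separate was not counted. Of single genes, 43.3% with fluvastatin and 49.0% with MBV did not overlap with PBS, a share that is no background for ratios. The counts of Gpr179 were 0.477, 0.475 and 0.449 of those of Trpm1 with PBS. They were 0.606, 0.65 and 0.59 with fluvastatin and 0.657, 0.62 and 0.728 with MBV. No treated library reached down to a PBS library, and the mean ratio was 1.32-fold higher with fluvastatin and 1.43-fold higher with MBV. All 3 ratios share Trpm1 and the same libraries, so they are not independent of each other. The ratio of Grm6 to Trpm1 was 0.179 ± 0.00991 with PBS (SD, n = 3), 0.252 ± 0.00476 with fluvastatin and 0.256 ± 0.00665 with MBV. Neither treatment overlapped with PBS. The ratio of Vsx1 to Trpm1 was 0.0600 ± 0.00344, 0.0531 ± 0.00256 and 0.0495 ± 0.00131 in the same order, and here the treated libraries were below all PBS libraries. Each of the 6 comparisons with PBS gave a two-sided exact permutation p of 0.1 and 0.15 after adjustment over the 9 tests. As 0.1 is the smallest p that 3 against 3 allows, none could have passed. Between MBV and fluvastatin the ratios overlapped, with an exact permutation p of 0.2, 0.6 and 0.2. The comparisons with PBS cross the sets of libraries, where a difference of set and a difference of treatment cannot be told apart. MBV and fluvastatin lie within 1 set.

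**Figure D3:**
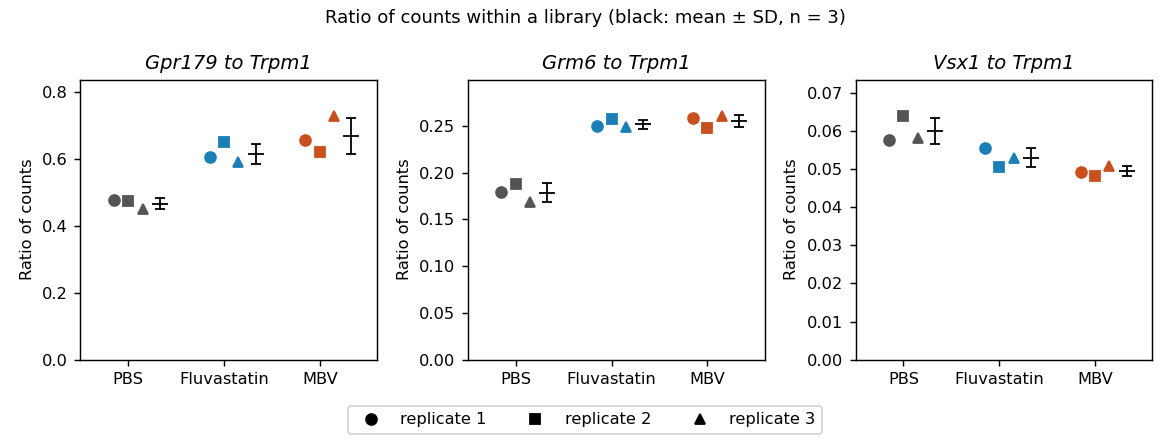
Ratio of the counts of Gpr179, Grm6 and Vsx1 to those of Trpm1 in each library, on axes that start at 0, by treatment group. Coloured symbols are libraries and black marks the mean ± SD (n = 3). The PBS libraries lie apart from the treated libraries in all 3 ratios, from 0.449 to 0.477 for Gpr179 to Trpm1 against 0.59 to 0.728, and the fluvastatin and MBV libraries overlap.

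The partners of these proteins in the ON cascade did not all move alike. Of 12 partner genes, 3 rose and 1 fell with fluvastatin and 3 rose and 1 fell with MBV, and the median log2 fold change was 0.156 and 0.179. The backgrounds were 25.0% and 33.7% of all genes called, or 31.5% and 40.9% of genes with a mean of at least 10 CPM. Gnao1, the alpha subunit of Go, rose by 0.16 with fluvastatin and 0.24 with MBV (log2; edgeR FDR 0.0299 and 0.0176), from 357 to 387 CPM with PBS to 407 to 429 and 409.7 to 461 CPM. Lrit3, a leucine-rich repeat protein needed for TRPM1 at the synapse, rose by 0.22 and 0.18 (edgeR FDR 0.0174 and 0.0181). Elfn1, an adhesion protein that rods place opposite mGluR6, rose by 0.24 and 0.28 (edgeR FDR 0.0224 and 0.0101). In these 3 genes every treated library was above every PBS library. Leaving out 1 library at a time, Elfn1 kept its call with MBV in all 6 fits and lost that with fluvastatin without PBS replicate 1 or 3 or fluvastatin replicate 2. Gnao1 kept its call with fluvastatin only when fluvastatin replicate 3 was left out, and lost that with MBV without PBS replicate 3 or MBV replicate 1 or 2. Lrit3 lost its call with fluvastatin without PBS replicate 1 or fluvastatin replicate 3, and with MBV without PBS replicate 1 or 3 or MBV replicate 1. Grm6 itself had 102, 107 and 85.8 CPM with PBS, 132, 110.4 and 109 CPM with fluvastatin and 132, 136 and 101 CPM with MBV. The log2 fold change of Grm6 was 0.25 (edgeR FDR = 0.0920) and 0.31 (edgeR FDR = 0.0815), and neither passed the test.

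A single partner fell with each treatment. Gnb5, the beta subunit that pairs with the regulators of Go in bipolar cells and with that of transducin in photoreceptors, fell by 0.22 with fluvastatin (edgeR FDR = 0.0489). Rgs9bp, the anchor of RGS9 in photoreceptors that bipolar cells also carry, fell by 0.38 with MBV (edgeR FDR = 0.0450). The calls of both were lost in 4 of the 6 fits that left out 1 library, for Gnb5 without PBS replicate 1 or 2 or fluvastatin replicate 2 or 3, and for Rgs9bp without PBS or MBV replicate 1 or 2. Of 9 photoreceptor genes, 3 (Pde6b, Sag and Nrl) fell with MBV, and 1 (Sag) with fluvastatin. Of all genes, 17.5% were called lower with MBV and 12.7% with fluvastatin. In the fits without 1 library, 1 to 6 of these 9 fell with MBV, with 6 without MBV replicate 3, and 0 to 2 with fluvastatin. The call of Sag with MBV was kept in all 6 fits, while those of Nrl and Pde6b were kept in 1 and 2 and that of Sag with fluvastatin in 1. The regulators Rgs7 and Rgs11, which GPR179 anchors, were not called, with log2 fold changes of -0.02 and 0.15 with fluvastatin and -0.06 and 0.18 with MBV. Gnb3 and Gng13, the beta and gamma subunits of Go in ON bipolar cells, had 0.25 and 0.31 with fluvastatin (edgeR FDR 0.0867 and 0.0710) and 0.20 and 0.19 with MBV (0.427 and 0.177). Lrit1 and Tpbg did not pass either. Leaving out 1 library at a time, 0 to 2 partners rose and 0 to 2 fell with fluvastatin, where none was called without PBS replicate 1, and 1 to 6 rose and 0 to 2 fell with MBV, where 6 rose without MBV replicate 3. Under DESeq2, 6 partners rose with fluvastatin (Grm6, Gnao1, Gnb3, Gng13, Lrit3 and Elfn1) and 4 with MBV (Grm6, Gnao1, Lrit3 and Elfn1). In 1 fit of all 9 libraries, Lrit3 and Elfn1 alone were called with fluvastatin. The share of all genes called in these changed fits is not given here. Their counts thus show no gain or loss particular to the partners or the photoreceptor genes.

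Of 10 other transcription factors of bipolar cells, none rose, 1 fell with fluvastatin and 2 fell with MBV, where 25.0% and 33.7% of all genes were called. Leaving out 1 library at a time, none rose and 0 to 3 fell with fluvastatin, and 0 to 3 rose and 1 to 2 fell with MBV. The 3 that rose without MBV replicate 3 were Prdm8, Irx6 and Lhx4. For these fits the share of all genes called is not given here, so the counts show nothing particular to this list. Bhlhe23, a factor of rod bipolar cells, had 22.4 to 25.1 CPM with PBS, 18.5 to 21.7 CPM with fluvastatin and 17.8 to 21.3 CPM with MBV. All treated libraries were below the lowest PBS library, and Bhlhe23 fell by 0.31 and 0.29 on the log2 scale (edgeR FDR 0.0277 and 0.0311). Isl1, which marks ON bipolar cells and some amacrine and ganglion cells, fell by 0.32 with MBV (edgeR FDR = 0.00582), a call that all 6 fits without 1 library kept. With fluvastatin the log2 fold change of Isl1 was -0.18 (edgeR FDR = 0.0797). Prdm8, the most abundant of the list, was at 0.06 and 0.11 and did not pass the test. With fluvastatin the call of Bhlhe23 was lost without PBS replicate 1 or 2 or fluvastatin replicate 2 or 3. The calls of Vsx1, of Gnb5 and of the ganglion cell gene Thy1, which rose, were lost without the same libraries. With MBV the call of Bhlhe23 was lost without PBS replicate 1 or 2 or MBV replicate 2 or 3. Of 6 Müller glia genes in the same libraries, 3 fell with fluvastatin and 2 with MBV. Their summed level was 2673 to 3342 CPM with PBS, 1429 to 2673 CPM with fluvastatin and 1255 to 2622 CPM with MBV. Most of this sum was Glul, which was not called. Glul had 2326 ± 365 CPM with PBS, 1293 ± 624 CPM with fluvastatin and 1230 ± 693 CPM with MBV (SD, n = 3). The part of the Müller glia genes in the levels of the bipolar genes was not tested.

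Of 6 further genes of rod bipolar cells, 3 fell and none rose with each treatment, with median log2 fold changes of -0.266 and -0.253. Of all genes, 12.7% were called lower with fluvastatin and 17.5% with MBV. With 1 library left out in turn, 2 to 4 fell with fluvastatin and 1 to 4 with MBV. With MBV, 1 alone (Qpct) fell without PBS replicate 1 or 2, and with fluvastatin 1 rose without fluvastatin replicate 1. How many of all genes were called in these fits is not given here, so no gain or loss is read from them. Car8, a carbonic anhydrase-related protein and marker of rod bipolar cells, had 108, 110.0 and 98 CPM with PBS, 72.1, 61.8 and 74.0 CPM with fluvastatin and 85.9, 85.3 and 67.5 CPM with MBV. It fell by 0.61 with fluvastatin (SE 0.0754, edgeR FDR = 0.00205) and by 0.41 with MBV (SE 0.0954, edgeR FDR = 0.0142), and its groups did not overlap with PBS. The call with fluvastatin was kept without each library in turn, and that with MBV was lost without PBS replicate 1 or 2. Qpct, the glutaminyl cyclase, fell by 0.49 and 0.50 (edgeR FDR 0.00453 and 0.00215) and kept both calls without any 1 library. Strip2, a partner of striatin, fell by 0.41 and 0.25 (edgeR FDR 0.0154 and 0.0352), but lost its call with fluvastatin without PBS replicate 1 or fluvastatin replicate 2, and kept that with MBV only when PBS replicate 3 was left out. The other 3, Vstm2b, Cacna1s and Kcne2, were not called.

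Genes of cone bipolar types moved in both directions. Of 20, 5 rose and 3 fell with fluvastatin and 3 rose and 1 fell with MBV, with medians of 0.047 and 0.059, beside 25.0% and 33.7% of all genes called in either direction. When each library was left out in turn, 2 to 6 rose and 0 to 2 fell with fluvastatin, with 2 that rose without fluvastatin replicate 2 and none that fell without PBS replicate 1. With MBV, 1 to 8 rose and 0 to 2 fell, with 1 that rose without PBS replicate 1 and 8 without MBV replicate 3. These counts, too, stand without the share of all genes called in the same fits, and show no gain or loss particular to the list. Hcn4, a pacemaker channel of cone bipolar types, rose from 35.0 to 37.8 CPM with PBS to 47.7 to 49.2 CPM with fluvastatin and 42.7 to 56.0 CPM with MBV. Its log2 fold change was 0.43 with fluvastatin (SE 0.0502, edgeR FDR = 0.00178) and 0.44 with MBV (SE 0.0939, edgeR FDR = 0.0101), and both calls were kept without any 1 library. Pcdh17, a protocadherin, rose by 0.27 and 0.24 (edgeR FDR 0.00904 and 0.0215). Lrrtm1, a synaptic adhesion protein, rose by 0.41 with fluvastatin (edgeR FDR = 0.0144) and was at 0.27 with MBV (edgeR FDR = 0.0708). Neto1, an auxiliary subunit of kainate receptors, fell by 0.33 and 0.36 (edgeR FDR 0.0161 and 0.0478). With fluvastatin the call of Pcdh17 was kept without any 1 library, that of Lrrtm1 was lost without fluvastatin replicate 2 and that of Neto1 without PBS replicate 1 or 2. With MBV the call of Pcdh17 was lost without any 1 PBS replicate or MBV replicate 1, and that of Neto1 without PBS replicate 1 or 2 or MBV replicate 1. The most abundant of the list, Grik1, the kainate receptor subunit of OFF bipolar cells, and Pcdh10 were not called. Several of these genes are also used by amacrine and ganglion cells, of whose marker lists 2 of 10 and 2 of 9 rose with fluvastatin and 1 of 10 and 0 of 9 with MBV, and their part was not tested.

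The members, the ON cascade partners and the other bipolar lists hold 57 genes. Of these, 8 rose and 9 fell with fluvastatin and 7 rose and 8 fell with MBV, and the medians were 0.007 and -0.041. Partners such as Elfn1 and Rgs9bp are made by photoreceptors, so these counts do not describe bipolar cells alone. Called genes were thus 17 and 15 of 57, beside backgrounds of 25.0% and 33.7% of all genes. Between MBV and fluvastatin none of the 57 was called in edgeR, and 5 had an unadjusted p under 0.05, where 12.5% of all genes did.

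**Figure D4:**
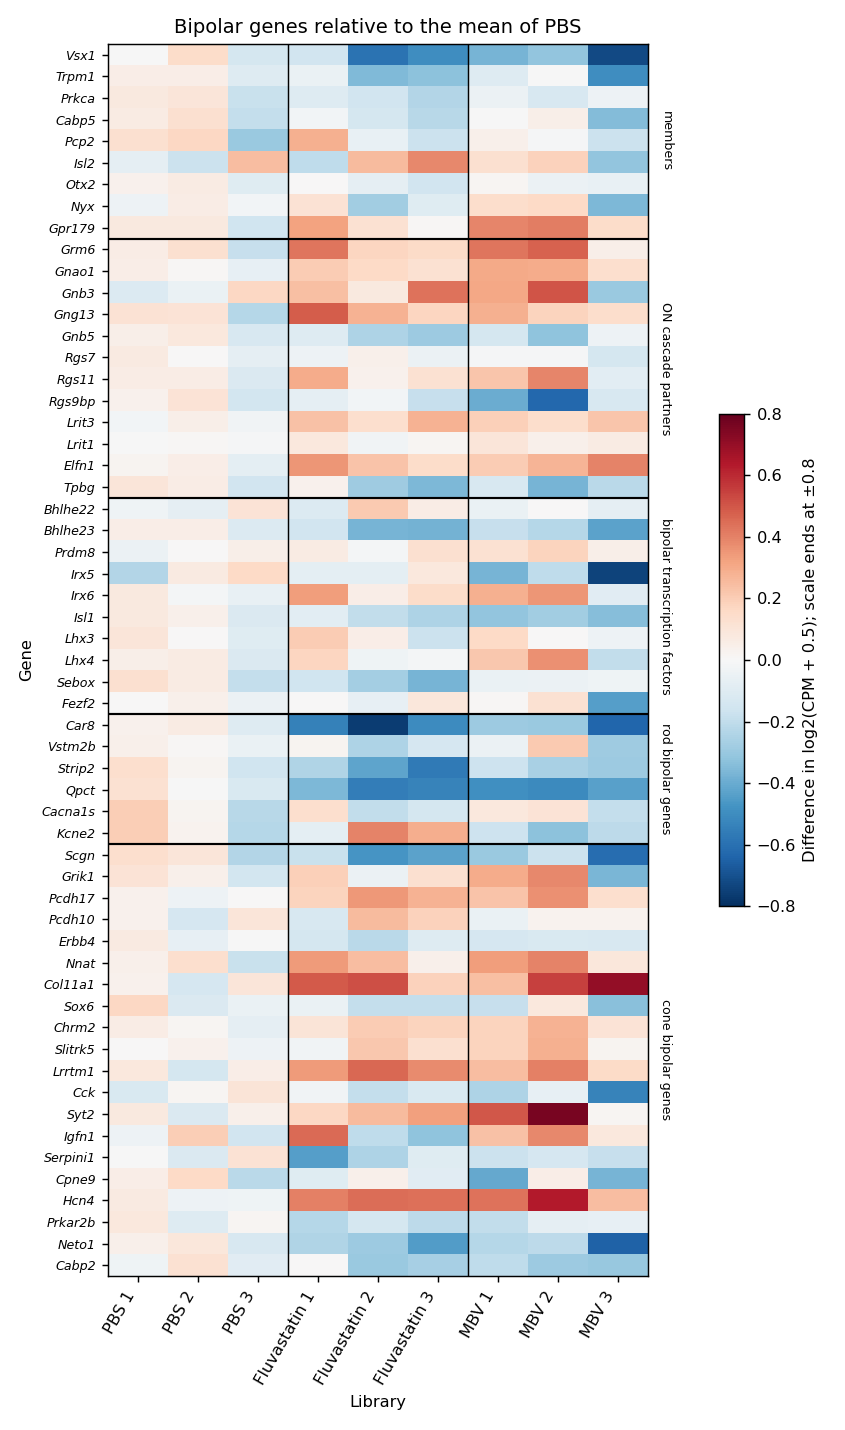
Difference of each of the 57 genes of the bipolar and ON cascade lists from the mean of the PBS libraries, in log2(CPM + 0.5). The 9 libraries are in columns and the genes in rows by list, with red above and blue below PBS and a scale that ends at 0.8 in either direction. Vsx1, Bhlhe23, Car8 and Qpct are blue in all 6 treated libraries, and Hcn4, Elfn1 and Gnao1 are red there.

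Of the 15047 genes compared by their profile over the 9 libraries, the 5 most like the mean profile of the members were Ino80, Sybu, Ptprd, Slc24a4 and Asic4. Their root mean square difference from it was 0.041 to 0.0444 on the log2 scale. The summed level of 5 lens genes was 0.379 to 4.15 CPM with PBS, 1.49 to 15.4 CPM with fluvastatin and 46.9 to 113 CPM with MBV, beside 1484 to 1821 CPM for the sum of the 9 members over all libraries, and the part of lens RNA in the members' levels was not tested.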

How the data were processed

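The authors extracted total RNA with TRIzol, made libraries with the TruSeq Total RNA kit and sequenced them as paired reads, aligned these to GRCm39 and obtained read counts in CLC Genomics Workbench. Values used here are raw counts per gene as deposited by the authors, without normalization, for 9 libraries in 3 groups (PBS, fluvastatin and MBV). Where a library appears in a second table its values were the same (9 of 9 columns). For MBV with fluvastatin, 6 count columns name no library and stayed out, so this treatment was not analysed here. Columns of fold changes, p-values and FDRs hold the authors' own comparisons and were not used.

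Genes with more than 10 counts in at least 2 libraries of either group, the minimum in the study's methods, were fitted in R 4.3.3 with edgeR 4.0.16 (TMM, quasi-likelihood test, Benjamini-Hochberg adjustment over all genes tested), with the 2 groups of a comparison alone. The coefficient of variation between replicates was 7.73%, 8.49% and 9.96% in the 3 comparisons, and TMM factors were 0.985 to 1.0244. Intervals are from the standard error and the t quantile of the fit. No fit with the library set as a term is possible, since each group lies in 1 set. On simulated counts for 15108 genes of fluvastatin against PBS, 82% of genes changed by 0.5 on the log2 scale and 100% of those changed by 1 were recovered, with 7 false calls. The simulation gave every gene the same variation between replicates, no difference of library set, and changes only in genes of higher counts. Its shares are therefore no measure of the power or the false calls of the real comparisons. DESeq2 1.42.0 was the other test. Further steps ran in Python 3.11.15 (pandas 2.3.3, scipy 1.17.1). Replicate pairs differed by more than sampling noise (chi-square per degree of freedom 3.47 to 21.4). Precision rests on the counts, and reads carry no molecular identifiers.

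The members and lists were chosen with earlier results of these data known. From each other list, genes called in any comparison were named, at most 4 by smallest p, with at most 2 of the highest mean level, and all ON cascade partners could be named. Some genes of the lists are not reported here and stand in no count. Positions are from GENCODE M39. The count ratios, and the fit without PBS replicate 3 and MBV replicate 3, were chosen after the values were seen. The likeness of profiles used log2(CPM + 0.5).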

Additional observations from a re-analysis of the deposited data

How the results depend on the processing

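Of 9 members, 1 was called with fluvastatin with library totals in place of TMM, without the count minimum and in 1 fit of all 9 libraries, and 2 were called with MBV in each of these. With fluvastatin, 2 were called in DESeq2 (Vsx1 and Trpm1), 2 at an unadjusted p under 0.05 and 0 with a fold of at least 2. With MBV, 0 had a fold of at least 2, and 3 were called without both PBS replicate 3 and MBV replicate 3. Leaving out 1 library at a time gave 0 to 4 members with fluvastatin (0 without PBS replicate 1 or 2 or fluvastatin replicate 2 or 3), 0 to 2 with MBV (0 without PBS replicate 1 or 2) and 0 between MBV and fluvastatin. Same-numbered replicates did not deviate together (correlations -0.366 to 0.159), and a fit with the replicate number as a block called 3 members with fluvastatin (Vsx1, Trpm1 and Prkca), 2 with MBV and 0 between them. Of the 12 partners, the block called 6 higher and 1 lower with fluvastatin and 3 higher and 0 lower with MBV (Grm6, Gnao1 and Elfn1). Counts from a changed fit, here and in the lists above, stand without the share of all genes called in that fit. They therefore show no gain or loss particular to the genes listed.

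The direction turned for values near 0. Isl2 with MBV was -0.006 without the count minimum, -0.001 with the replicate block, and Nyx with MBV was 0.02 with library totals and 0.13 without both PBS replicate 3 and MBV replicate 3. Leaving out 1 library, the log2 fold change with fluvastatin ran from -0.134 to 0.103 for Pcp2 and -0.193 to 0.01 for Nyx. With MBV it ran from -0.2 to 0.009 for Cabp5, -0.204 to 0.015 for Pcp2, -0.11 to 0.177 for Isl2 (0.34 without both PBS replicate 3 and MBV replicate 3) and -0.095 to 0.144 for Nyx. Of MBV against fluvastatin it ran from -0.146 to 0.086 for Vsx1, -0.046 to 0.187 for Trpm1, -0.036 to 0.151 for Cabp5, -0.17 to 0.073 for Pcp2, -0.004 to 0.084 for Otx2 and -0.014 to 0.233 for Nyx. The cause was not tested. The planned fits of the combined treatment and of effects balanced over library sets were not run, because its count columns carry no library name.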
